A study of Caenorhabditis elegans with 6 samples.

Results

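The transthyretin-like genes of *C. elegans* were taken as every gene whose symbol starts with *ttr-*, with symbols assigned to array probes through the sequence name of each probe. The reference annotation names 59 such genes, and 50 of them were on the array, out of 18873 genes on the array in all. Each of the 50 was represented by 1 probe. Of the 50, 48 were kept after the signal filter, out of 14760 genes kept. The arrays compared wild type (N2) with 2 mutant strains, all as late L4 larvae, namely *ets-4(ok165)*, a deletion that removes the coding sequence for both the PNT and the ETS domain, and *ets-4(uz1)*, in which most of the ETS domain is missing. They are called *ok165* and *uz1* here. Both mutant strains had been outcrossed to N2, and all worms were grown at 20 °C on plates with OP50 bacteria, so no group carried an added agent. RNA of whole worms from each mutant was labeled with Cy5 and wild-type RNA with Cy3, and each mutant strain was hybridized against wild type on 3 arrays, numbered 1 to 3, which the methods call independent repeats. The dyes were never swapped, so a dye effect of a probe adds to every ratio of mutant over wild type and drops out only when the mutants are compared with each other.

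Transthyretin-like proteins form a large family in nematodes. Most members carry a signal for secretion, and the function of most is unknown. They are named for their resemblance to vertebrate transthyretin, which carries thyroid hormone and retinol-binding protein in the blood. The transthyretin fold is also found in 5-hydroxyisourate hydrolase, an enzyme of uric acid breakdown. In *C. elegans* secreted TTR-52 bridges phosphatidylserine on dying cells to the engulfment receptor CED-1, and TTR-33 protects dopaminergic neurons from oxidative stress. ETS-4 is a transcription factor of the ETS family. RNA of whole worms was measured, so fewer cells that express a gene and less RNA per cell cannot be told apart.

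Values below are log2 ratios of mutant over wild type, in which 1 stands for a doubling, and the signals are Agilent's processed signals in arbitrary units. Of the 50 *ttr* probes, 39 were well above background in wild type on all 6 arrays and 42 in the mutants. *ttr-19* and *ttr-58* stood well above background in neither channel and on none of the arrays, and no ratio is given for them. *ttr-11*, *ttr-28* and *ttr-52* passed the filter only through the mutant signal, since their wild-type signal never stood well above background. The signal of wild type was well above background on some arrays only for 6 others. Among these, *ttr-41* has no value on *ok165* array 1, where its spot was an outlier, and was well above background on the 5 arrays with a value. The 9 genes not on the array were *ttr-4*, *ttr-34*, *ttr-36*, *ttr-38*, *ttr-42*, *ttr-45*, *ttr-49*, *ttr-56* and *ttr-57*. Of the 50 on it, 20 lie on chromosome V, 9 on III, 9 on IV, 8 on X, 2 on II and 2 on I. The probe sequences were not used here, so hybridization of a probe to a similar family member was not tested. None of the 50 probes was saturated.

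The *ets-4* probe itself gave −3.59, −2.80 and −2.72 on the *ok165* arrays and −3.18, −3.08 and −2.84 on the *uz1* arrays. Wild type was well above background on all 6 arrays for 7 of the 8 intestine markers measured, 6 of 6 hypodermis markers, 5 of 5 body wall muscle markers and 6 of 6 neuron markers. The marker lists had median ratios in *uz1* larvae of −0.38 for intestine, 0.31 for hypodermis, 0.63 for body wall muscle and 0.65 for oocytes. In *ok165* larvae the medians of these lists were −0.06, 0.20, 0.07 and −0.47, so that the oocyte medians had opposite signs in the 2 strains. The arrays were not uniform in this. On *uz1* array 3 *oma-1*, *oma-2*, *puf-5* and *rme-2* had −0.19, −0.10, −0.11 and −0.35, and *cbd-1* had 0.05. On *ok165* array 2 *rme-2* and *cbd-1* were above 0, at 0.37 and 0.40. limma called no oocyte marker in either strain. Single markers went different ways in *uz1* larvae. Among 5 adult cuticle markers *col-19* fell (mean −3.25, limma adjusted p = 0.00747), while *bli-1* and *bli-2* had means of 0.89 and 0.74 and passed no test. *mlt-11*, 1 of 5 markers of the L4 stage, and *dpy-7*, of the hypodermis list, rose (1.06 and 1.63, limma adjusted p = 0.0382 and 0.0320). The part of cell composition or stage in the *ttr* ratios was not tested.

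In *uz1* larvae 4 transthyretin-like genes rose at an adjusted p under 0.05 in limma, and none fell. *ttr-6* (T28B4.3, on chromosome X) had wild-type signals of 11860, 10223 and 12368 and mutant signals of 32749, 32236 and 24623 on arrays 1, 2 and 3. The mutant signal exceeded every wild-type signal by a wide margin, and the log2 ratios were 1.47, 1.66 and 0.99. *ttr-6* was thus 2.59-fold higher (log2 ratio 1.37 ± 0.34, SD, n = 3 arrays, limma adjusted p = 0.0184). *ttr-23* (T21C9.8, on chromosome V) had ratios of 1.05, 1.42 and 1.38, with wild-type signals of 414, 406 and 696 and mutant signals of 856, 1090 and 1805. The mutant signal was above wild type on each array, and the gene was 2.43-fold higher (1.28 ± 0.20, limma adjusted p = 0.0111). *ttr-26* (Y51A2D.11, on chromosome V) had the widest spread of the 4, with ratios of 1.48, 2.55 and 1.79, and was 3.84-fold higher (1.94 ± 0.55, limma adjusted p = 0.0367). *ttr-43* (C14C10.7, on chromosome V) had the smallest increase and the narrowest spread, with ratios of 0.82, 0.78 and 0.74, and was 1.72-fold higher (0.78 ± 0.04, limma adjusted p = 0.0405). Across all genes tested 2.2% rose and 1.33% fell in this strain, against 4 of 48 *ttr* genes, or 8.33%, and 0 of 48. At an unadjusted p under 0.05 limma counted 20 of the 48 *ttr* genes higher (41.7%) and 4 lower (8.33%), against 9.88% higher and 9.67% lower across all genes. The 20 include *ttr-28*, which passed the filter only through the mutant signal. Without *ttr-11*, *ttr-28* and *ttr-52*, 19 of 45 were higher. With 1 of the *uz1* arrays left out, the means stayed between 1.23 and 1.56 for *ttr-6*, 1.21 and 1.4 for *ttr-23*, 1.64 and 2.17 for *ttr-26* and 0.76 and 0.80 for *ttr-43*, but limma called 0 *ttr* genes in each case, and across all genes 60 to 96 in place of 522. With normexp background correction and loess the mean of *ttr-43* was 0.44 and its call was lost. Without array 1 of *ok165*, which shares the estimate of each gene's spread, limma called 2 *ttr* genes, without its array 2 it called 7 and without its array 3 it called 3.

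**Figure D1:**
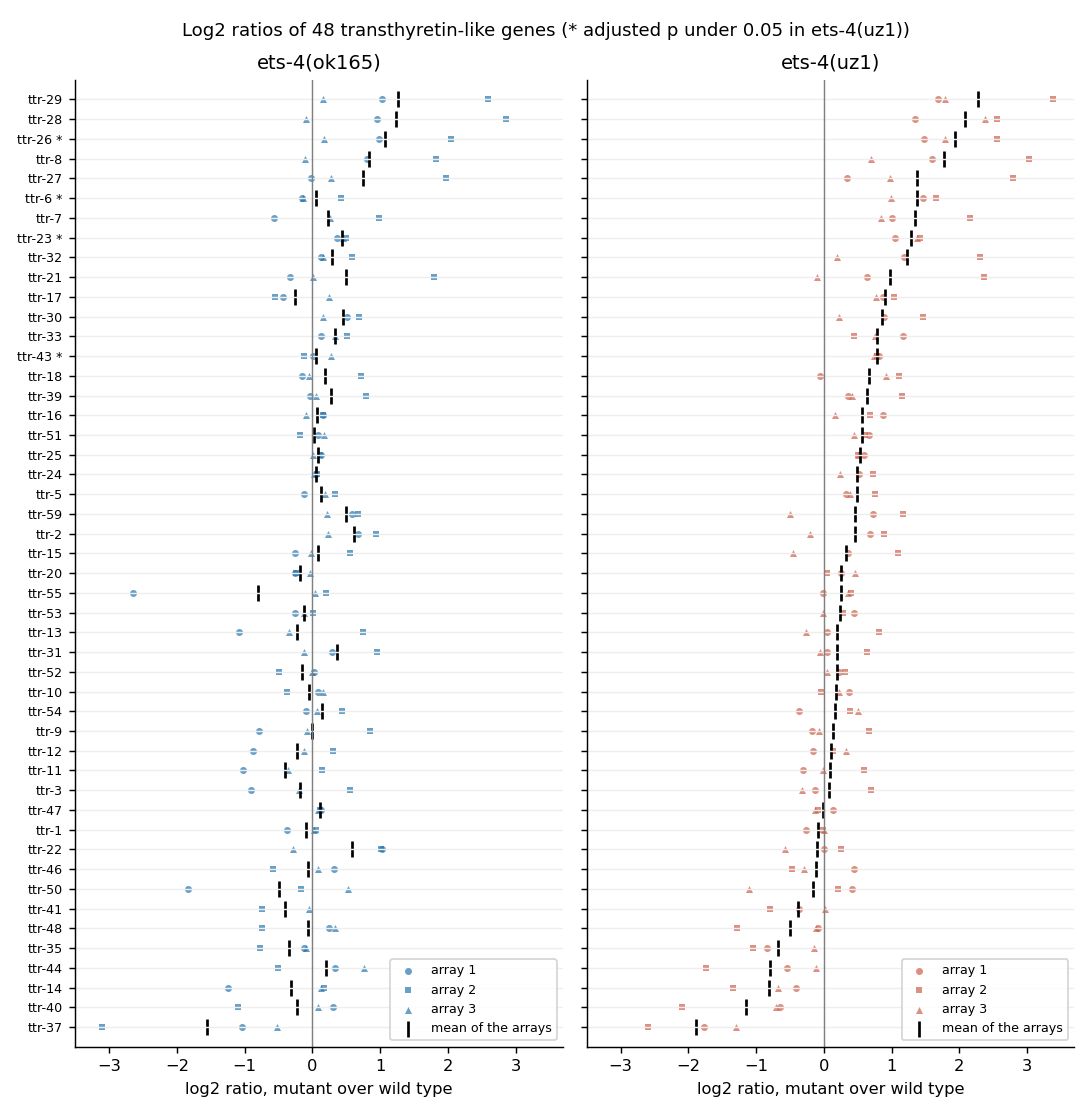
Log2 ratio of mutant over wild type (horizontal axis) of the 48 transthyretin-like genes (vertical axis, ordered by the mean in *uz1* larvae) on each of 3 arrays in *ok165* (left) and *uz1* (right), with the mean as a black bar and an asterisk where the adjusted p from limma was under 0.05 in *uz1* larvae. The *uz1* means run from −1.89 for *ttr-37* to 2.28 for *ttr-29*. Of the 48, 36 are above 0, against 53.5% of all genes. The 36 include *ttr-11*, *ttr-28* and *ttr-52*, which passed the filter through the mutant signal alone.

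Arrays of the same number deviated together, so the fit was repeated with array number as a blocking term, and p-values from that fit are marked as blocked. Blocking takes the variation between array numbers out of the spread against which each mean is tested. A blocked p can thus be small where the 3 arrays of a strain lie far apart, if the other strain deviated alongside. It does not measure the spread between the repeats of a strain, and a smaller blocked p is not a stronger result against that spread. With it limma called 19 *ttr* genes higher and 5 lower in *uz1* larvae, against 7.21% higher and 8.33% lower across all genes. The 4 genes above were among the 19, with adjusted p = 0.00889 for *ttr-6*, 0.00858 for *ttr-23*, 0.0110 for *ttr-26* and 0.0217 for *ttr-43*. The other genes called higher were *ttr-5*, *ttr-7*, *ttr-8*, *ttr-16*, *ttr-17*, *ttr-21*, *ttr-25*, *ttr-27*, *ttr-28*, *ttr-29*, *ttr-30*, *ttr-32*, *ttr-33*, *ttr-39* and *ttr-51*, and those called lower were *ttr-35*, *ttr-37*, *ttr-40*, *ttr-44* and *ttr-48*. The wild-type signal of *ttr-21* was well above background on array 3 only, where its *uz1* ratio was −0.10. That of *ttr-28* was well above background on none. Rank Products, which the methods used, called 8 of the 50 *ttr* genes higher and 1 lower, against 1.66% and 1.16% of all genes. These were *ttr-6*, *ttr-7*, *ttr-8*, *ttr-23*, *ttr-26*, *ttr-27*, *ttr-28* and *ttr-29*, and, lower, *ttr-37*. Several of them are in lists that the study drew from these same arrays, so their presence here is not independent evidence. All 3 *uz1* arrays were above wild type for 21 of the 48 genes and below it for 7, where 20.4% and 19.3% of all genes were. *ttr-11*, *ttr-28* and *ttr-52* passed the filter through the mutant signal alone, which favors ratios above 0. Without these 3 genes the blocked fit called 18 of 45 higher, Rank Products called 7 higher, 19 were above wild type on all *uz1* arrays, and the 4 calls of the unblocked fit were as before. Over the 48 genes kept, the median ratio in *uz1* larvae was 0.29, with quartiles of 0.06 and 0.81, while the median of all genes was 0.03, with quartiles of −0.24 and 0.28. The *ttr* median was 0.48 without array 3 of this strain and 0.33 without the same 3 genes.

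*ttr-29* (R90.4) and *ttr-8* (R13A5.6) had mean ratios above those of *ttr-6*, *ttr-23* and *ttr-43* without passing limma's test. *ttr-29* had ratios of 1.68, 3.39 and 1.79 in *uz1* larvae, a mean 4.87-fold above wild type (2.28 ± 0.96, limma adjusted p = 0.0554, or 0.00668 when blocked). With normexp background correction and loess the mean was 1.21. Its wild-type signals were 111, 87.1 and 410 and its mutant signals 354, 910 and 1418, so that the wild-type signal on array 3 exceeded the mutant signal on array 1. *ttr-8* had ratios of 1.60, 3.03 and 0.70 (1.78 ± 1.17, limma adjusted p = 0.105, or 0.00508 when blocked), and the mean was 1.15 without array 2. Its wild-type signals on these arrays were 753, 693 and 3008 and its mutant signals 2290, 5642 and 4890, and array 3 again gave the highest wild-type signal. *ttr-28* (R90.3) had mutant signals of 95.6, 272 and 331 in *uz1* larvae, all well above background, and wild-type signals of 37.7, 46.5 and 63.5, none of which was. The difference is a lower limit, at least 2.66-fold higher. No p-value is given because the gene passed the filter through the mutant signal alone, and its calls above carry the same limit. The limit sets the mutant signal against the higher of the wild-type signal and the lowest signal well above background on each array.

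Other members called higher only when blocked differed in their spread between arrays. *ttr-17* (Y5F2A.2) had *uz1* ratios of 0.88, 1.04 and 0.77 (0.90 ± 0.13, limma adjusted p = 0.0537, or 0.0352 when blocked) and *ttr-51* (JC8.8) of 0.66, 0.60 and 0.45 (0.57 ± 0.11, limma adjusted p = 0.0984, or 0.0415 when blocked). Their 3 arrays lay close together, as did those of *ttr-43*. *ttr-7* (T19C3.9) had 1.01, 2.16 and 0.84 (1.34 ± 0.72, limma adjusted p = 0.0956, or 0.0155 when blocked) and *ttr-30* (T08A9.2) had 0.89, 1.47 and 0.23 (0.86 ± 0.62, limma adjusted p = 0.119, or 0.0240 when blocked), each with array 2 highest and array 3 lowest. *ttr-5*, *ttr-16* and *ttr-39* had means of 0.49, 0.57 and 0.64. The family as a whole varied most on the number 2 arrays, with an SD over genes of 1.28 on *uz1* array 2, against 0.79 for all genes. It varied least on *ok165* array 3, with an SD of 0.23 against 0.33. The medians of the members were 0.35, 0.64 and 0.17 on *uz1* arrays 1, 2 and 3 and 0.01, 0.32 and 0.05 on the *ok165* arrays, where the medians of all genes lay between −0.04 and 0.05.

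Of the *ttr* genes with lower ratios, *ttr-37* (F21E9.3, on chromosome X) had the lowest means in both strains. Its ratios were −1.04, −3.10 and −0.53 in *ok165* larvae and −1.77, −2.60 and −1.30 in *uz1* larvae. Wild-type signals ran from 768 to 1755 over the 6 arrays and mutant signals from 198 to 547, without overlap. The mean was −1.55 ± 1.36 in *ok165* larvae (2.94-fold lower, limma adjusted p = 0.526, or 0.0760 when blocked, with a mean of −0.78 without array 2) and −1.89 ± 0.66 in *uz1* larvae (3.71-fold lower, limma adjusted p = 0.0888, or 0.0136 when blocked). Rank Products called it lower in both, at a probability of false prediction of 0.0480 and 0.0136. A table of the study lists this gene from these arrays, and it was described for that reason. *ttr-40* (E02C12.4) had ratios of −0.65, −2.09 and −0.70 in *uz1* larvae (−1.15 ± 0.82, limma adjusted p = 0.151, or 0.00951 when blocked) and 0.31, −1.10 and 0.09 in *ok165* larvae. Array 2 was the lowest in both strains. *ttr-35* (F22A3.2) was picked out for its place, as the gene beside *ets-4* (F22A3.1) in RefSeq's annotation, and all its ratios were below 0. They were −0.13, −0.78 and −0.10 in *ok165* larvae (−0.34 ± 0.38, limma adjusted p = 0.742) and −0.84, −1.05 and −0.14 in *uz1* larvae (−0.68 ± 0.47, limma adjusted p = 0.172, or 0.0365 when blocked).

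**Figure D2:**
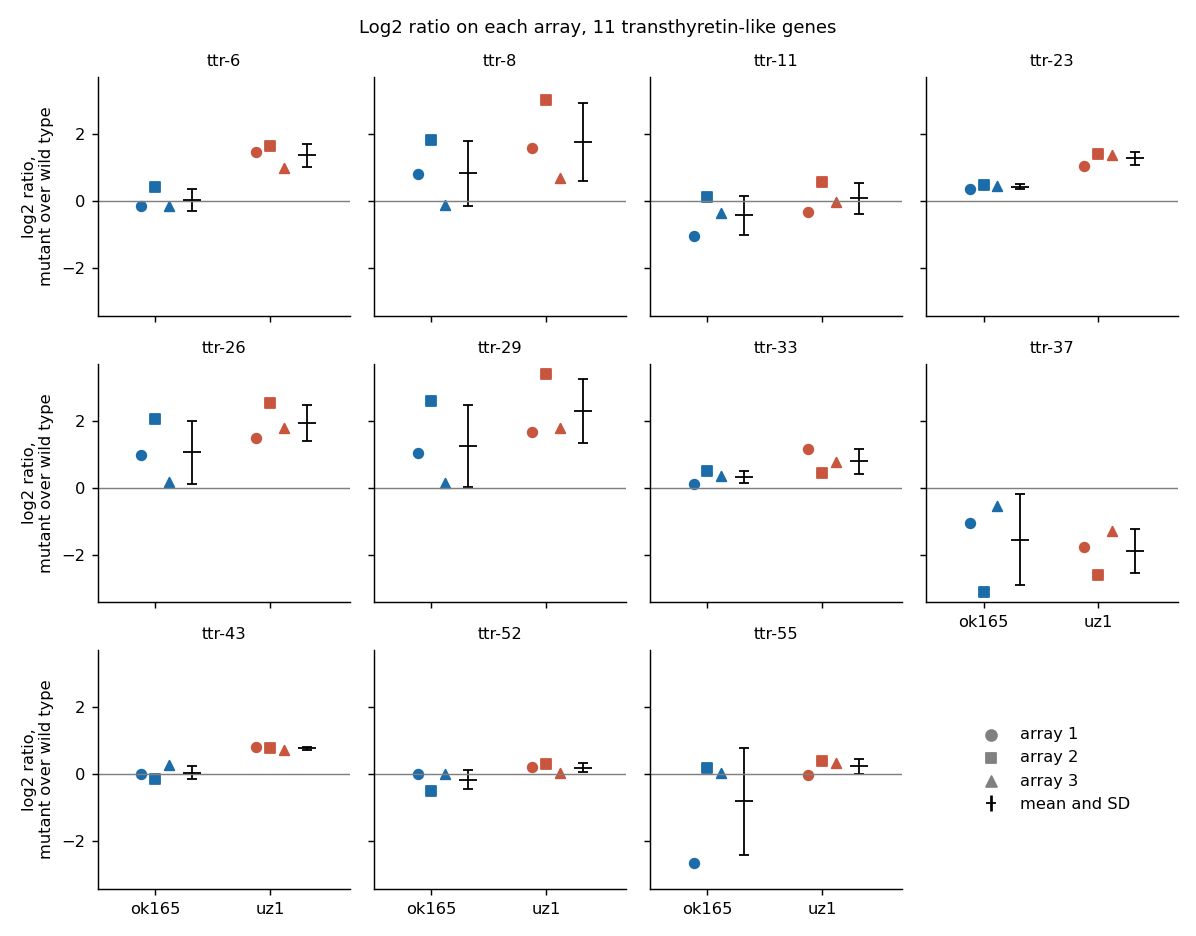
Log2 ratio of mutant over wild type (vertical axis) on each of the 3 arrays of *ok165* (blue) and *uz1* (red) for 11 transthyretin-like genes, with the mean and SD in black. *ttr-6* and *ttr-43* lie near 0 in *ok165* larvae and above it on all *uz1* arrays, and *ttr-37* lies below 0 on all 6.

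In *ok165* larvae limma called 0 of the 48 *ttr* genes in either direction, blocked or not, where 0.0949% of all genes were called without blocking and 0.332% with it. Before adjustment 5 genes were higher at p under 0.05, *ttr-2*, *ttr-23*, *ttr-26*, *ttr-28* and *ttr-29*, of which *ttr-28* passed through the mutant signal alone, and 1 lower, *ttr-37*, against 4.53% and 3.61% across all genes. Rank Products called none higher and *ttr-37* lower, against 0.286% and 0.434%. All 3 arrays were above wild type for 11 genes and below it for 3, where 14.7% and 14.9% of all genes were. Of the 48 genes 28 had a mean above 0, *ttr-28* among them, against 46.0% of all genes. The median ratio of the 48 genes was 0.06, against −0.02 for all genes. Without array 1 of this strain it was 0.16. *ttr-6* had ratios of −0.15, 0.42 and −0.14 (0.05 ± 0.33, limma adjusted p = 0.967) and *ttr-43* of 0.01, −0.13 and 0.27 (0.05 ± 0.20, limma adjusted p = 0.952). Both genes therefore straddled 0 in this strain. *ttr-23* was above 0 on each array, at 0.37, 0.50 and 0.45, with a narrow spread (0.44 ± 0.07, limma adjusted p = 0.570). *ttr-26*, *ttr-29* and *ttr-8* varied far more, each with its highest ratio on array 2 and its lowest on array 3. *ttr-26* had 0.98, 2.05 and 0.17 (1.07 ± 0.94, limma adjusted p = 0.567), *ttr-29* had 1.03, 2.59 and 0.16 (1.26 ± 1.23, limma adjusted p = 0.591), and *ttr-8* had 0.81, 1.83 and −0.11 (0.84 ± 0.97, limma adjusted p = 0.695). Without array 2 these means were 0.57, 0.60 and 0.35, without array 3 that of *ttr-8* was 1.32, and with normexp and loess that of *ttr-29* was 0.62. The mutant signals of *ttr-28* were 90.5, 236 and 50 against wild-type signals of 46.8, 32.5 and 53.7, lower than wild type on array 3, and no fold is given. The mean of *ttr-55* (F56F4.2) rested on 1 array. Its ratios were −2.65, 0.20 and 0.04, and on array 1 the mutant signal of 19.8 was not well above background, against 124 in wild type. The mean of −0.80 ± 1.60 (limma adjusted p = 0.722) became 0.12 without that array.

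The difference between the mutant strains was tested in the same fit, and it is free of a constant dye effect. Arrays 2 and 3 of the strains were on different slides, so slide and strain cannot be told apart there. limma called 0 of the 48 *ttr* genes different, without blocking or with it, where 0.163% and 0.623% of all genes were called. Before adjustment, p was under 0.05 for 5 genes higher in *uz1* than in *ok165* larvae, *ttr-6*, *ttr-17*, *ttr-23*, *ttr-43* and *ttr-51*, and 0 lower, against 3.73% and 3.02% across all genes. *ttr-6* had the largest difference, 1.33 ± 0.28 (SE), and it was 1.61, 1.23 and 1.14 between the arrays numbered 1, 2 and 3 (limma adjusted p = 0.221, or 0.0644 when blocked). *ttr-17* had 1.31, 1.59 and 0.53 (limma adjusted p = 0.298), with ratios of −0.43, −0.55 and 0.24 in *ok165* larvae, all below the *uz1* ratios given above. *ttr-23* had differences of 0.68, 0.92 and 0.92 (limma adjusted p = 0.339) and *ttr-43* of 0.82, 0.92 and 0.47 (limma adjusted p = 0.477). At all 3 array numbers the difference was above 0 for 25 of the 48 genes and below 0 for 6, where 23.5% and 20.6% of all genes were. Without *ttr-11*, *ttr-28* and *ttr-52* the former count was 23 of 45. By array number it was above 0 for 38 of 47, 32 of 48 and 32 of 48 *ttr* genes, with medians of 0.50, 0.38 and 0.11, and among all genes 52.2%, 52.2% and 52.5% were above 0. The median difference over the members was 0.37 in the joint fit, against 0.04 for all genes. It fell to 0.21 without array 1 of *ok165*, to 0.23 without array 2 of *uz1* and to 0.22 with another background correction and loess.

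The wild-type signal of many *ttr* genes depended on the array number. Each array had its own wild-type channel, and the level of a probe is given here as its log2 Cy3 signal less the 75th percentile of the array. Between the 2 arrays of the same number the wild-type levels of the 48 genes differed by a median of 0.09, whereas between numbers 1 and 2 they differed by 0.31, between 1 and 3 by 0.62 and between 2 and 3 by 0.90. For all genes these medians were 0.13, 0.38, 0.48 and 0.60. The labels do not say whether arrays of the same number shared wild-type RNA, and if they did, the ratios of the mutant strains share those controls. Of the 48 genes, 23 varied by more than 1 in log2 between array numbers, a count given without the share of all genes. They include *ttr-13*, *ttr-21*, *ttr-22* and *ttr-50*, whose wild-type signal was not well above background on every array. The ranges of these genes depend in part on signals near background. On both number 3 arrays the wild-type level was more than doubled relative to every other array for 8 genes, *ttr-8*, *ttr-14*, *ttr-21*, *ttr-27*, *ttr-29*, *ttr-32*, *ttr-50* and *ttr-59*, and less than 1/2 of it for 3, *ttr-10*, *ttr-35* and *ttr-44*, where 3.46% and 3.92% of all genes were. These genes were singled out after their values were seen.

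*ttr-21* (F09F3.6) had wild-type signals of 81.7, 63.6 and 678 on the *ok165* arrays and 56.2, 46.9 and 656 on the *uz1* arrays, well above background on the number 3 arrays only. No fold is given between array numbers, since the lower signals are bounds. The mutant signals followed, at 65, 219 and 685 in *ok165* and 87.8, 242 and 612 in *uz1* larvae, all well above background. On the number 3 arrays, where both channels were measured, the ratios were 0.01 and −0.10. *ttr-8* had wild-type signals of 545, 574 and 2996 on the *ok165* arrays, close to those on the *uz1* arrays given above. *ttr-32* (R13A5.3) had 630, 668 and 3253 and 1009, 821 and 3878, and *ttr-14* (T05A10.3) had 18531, 13207 and 62370 and 24188, 15221 and 64090. In each of these genes the number 3 arrays stood far above the others in wild type. *ttr-44* (C56A3.2) was the reverse, with 33221, 52066 and 12598 on the *ok165* arrays and 39852, 63350 and 13217 on the *uz1* arrays. The ratios of *ttr-44* were 0.33, −0.51 and 0.76 in *ok165* and −0.54, −1.74 and −0.12 in *uz1* larvae (−0.80 ± 0.84, limma adjusted p = 0.270, or 0.0197 when blocked). Of the 4 genes called in *uz1* larvae, the wild-type levels differed between array numbers 1.3-fold for *ttr-6*, 1.35-fold for *ttr-43*, 1.57-fold for *ttr-23* and 1.91-fold for *ttr-26*. These folds compare means over the 2 arrays of a number, and for *ttr-43* 2 arrays of the same number differed by 0.64 in log2. Stage, germ line and tissue markers differed between array numbers in wild type too. Of the 5 oocyte markers 4 had their highest wild-type levels on both number 3 arrays, and their summed signal was 24.0 and 21.7 times the 75th percentile of the array there, against 9.22 and 7.07 times on *ok165* arrays 1 and 2. Of the 8 intestine markers 7 were lowest on both number 3 arrays, as were 5 of the 6 hypodermis markers and 4 of the 5 markers of the L4 stage. The 2 genes for 5-hydroxyisourate hydrolase were also lowest there. Of the 5 body wall muscle markers 2 were highest there and 0 lowest. The 5 adult cuticle markers were split. *col-19* and *col-7* were highest on number 3, at 6.04 and 6.38 and at 6.94 and 7.56, *bli-1* and *bli-2* were lowest there, at 2.83 and 2.95 and at 2.83 and 2.91, and *rol-1* was saturated on both number 1 arrays. No sum is given for the lists that hold a saturated marker. The part of stage in these wild-type levels was not tested.

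**Figure D3:**
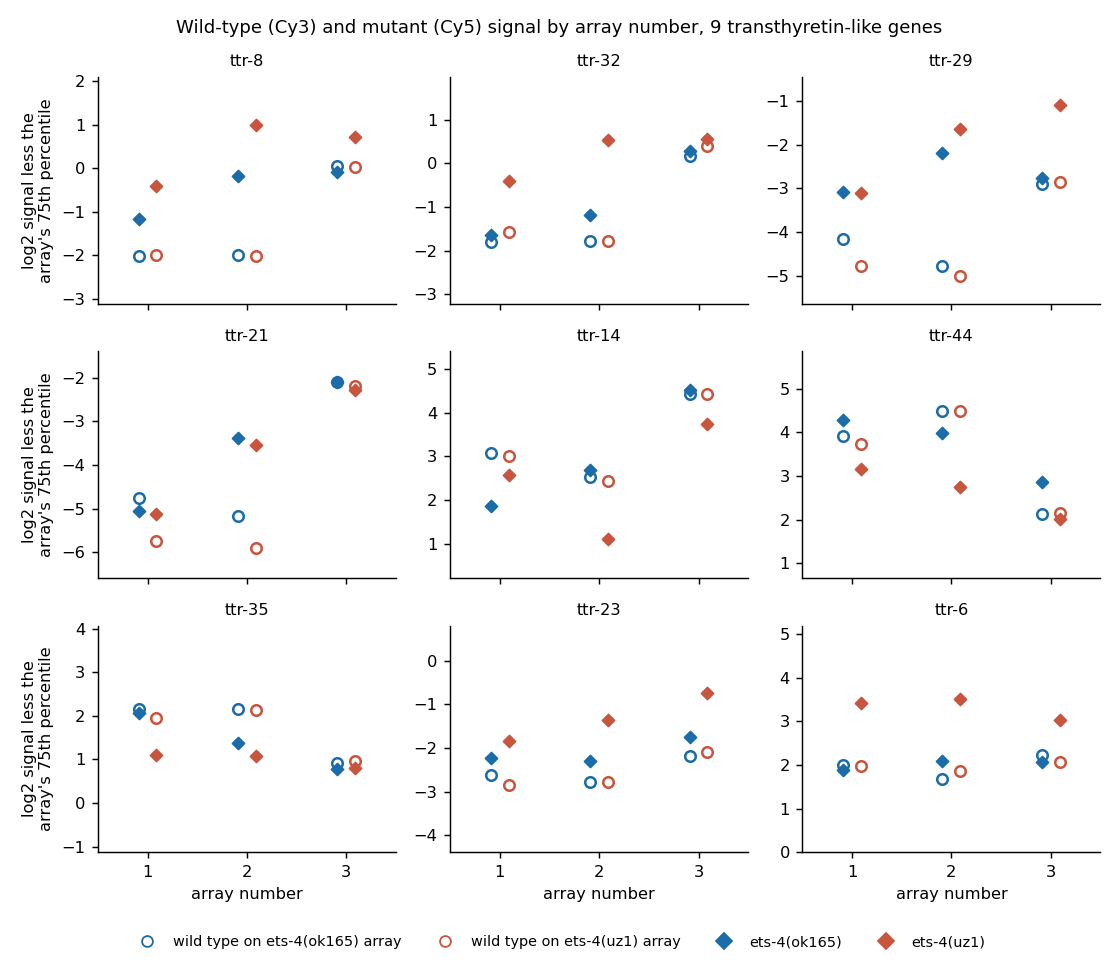
Log2 signal less the 75th percentile of the array (vertical axis) by array number (horizontal axis) for 9 transthyretin-like genes, with wild type as open circles and mutants as diamonds, in blue for *ok165* arrays and red for *uz1* arrays. The wild-type circles of the same number lie within 1 of each other, while *ttr-8*, *ttr-32*, *ttr-29*, *ttr-21* and *ttr-14* are highest in wild type at number 3 and *ttr-44* and *ttr-35* lowest.

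Many *ttr* genes lie beside another member. In the gene order of RefSeq's annotation (WBcel235) 12 runs of members separated by at most 1 other gene held 29 of the 59 genes, of which 23 had a ratio here. In the run of *ttr-27* (R90.2), *ttr-28* and *ttr-29* the mutant signal of *ttr-27* and *ttr-29* was above wild type on every *uz1* array. *ttr-27* had 0.34, 2.80 and 0.97 (1.37 ± 1.28, limma adjusted p = 0.215, or 0.00889 when blocked). *ttr-28* passed the filter through the mutant signal alone, so its direction adds nothing here. In *ok165* larvae *ttr-27* and *ttr-29* were highest on array 2, with 1.98 and 2.59, and within 0.28 of 0 on array 3. In the run of *ttr-24* (Y51A2D.9), *ttr-25* (Y51A2D.10) and *ttr-26* the outer gene *ttr-26* stood apart. *ttr-24* had ratios of 0.52, 0.72 and 0.24 and *ttr-25* of 0.59, 0.51 and 0.50 in *uz1* larvae, against 1.48, 2.55 and 1.79 for *ttr-26*. *ttr-25* had a small spread (0.53 ± 0.05, limma adjusted p = 0.0916, or 0.0338 when blocked). In *ok165* larvae *ttr-24* lay between 0.03 and 0.07 and *ttr-25* between 0.01 and 0.12, while *ttr-26* reached 2.05. The pair *ttr-8* and *ttr-32* had its highest ratios on array 2 in both strains, 1.83 and 0.59 in *ok165* and 3.03 and 2.31 in *uz1* larvae. In the run of *ttr-3*, *ttr-2* and *ttr-1* the middle gene had 0.68, 0.94 and 0.23 in *ok165* larvae, whereas *ttr-1* stayed between −0.37 and 0.06 there.

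**Figure D4:**
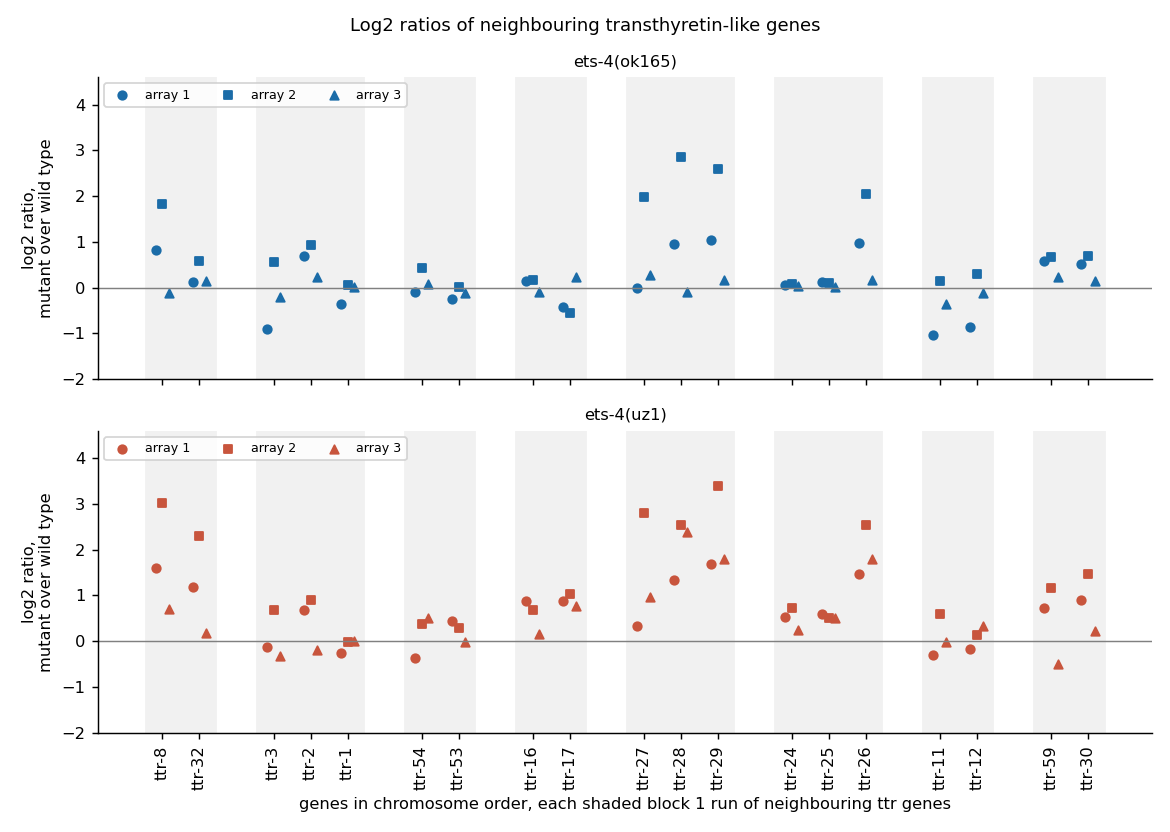
Log2 ratio of mutant over wild type (vertical axis) on each of 3 arrays for transthyretin-like genes that lie beside another measured member, in chromosome order (horizontal axis) with each run shaded, for *ok165* (upper) and *uz1* (lower). *ttr-27* and *ttr-29* are above 0 on all *uz1* arrays, as is *ttr-28*, which passed the filter through the mutant signal alone. *ttr-26* stands above its neighbors *ttr-24* and *ttr-25* on all 6 arrays.

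The members with known functions were measured at low signals or did not pass. *ttr-33* (C37C3.13) had ratios of 1.17, 0.44 and 0.76 in *uz1* larvae, with wild-type signals of 476, 672 and 925 and mutant signals of 1073, 909 and 1570. All 3 ratios were above 0 (1.73-fold, 0.79 ± 0.37, limma adjusted p = 0.0691, or 0.0460 when blocked). In *ok165* larvae they were 0.13, 0.51 and 0.34 (0.33 ± 0.19, limma adjusted p = 0.686). *ttr-52* (F11F1.7) had wild-type signals between 30.6 and 52.2, none of them well above background, and mutant signals well above background on 1 of 3 *ok165* arrays and 2 of 3 *uz1* arrays, between 16.7 and 53.0. No fold or p-value is given for it, since it passed the filter through the mutant signal alone. *ttr-11* (F46B3.3) was in the same position, with wild-type signals of 32.6 to 68.7 and mutant signals of 24.4 to 64.5. Its mutant signals were well above background on 2 of 3 arrays in each strain. At these signals a fall or a small difference in either gene was not detectable.

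All 10 genes of a list for the engulfment of dying cells, a process that *ttr-52* takes part in, were measured. Of the 10, which include the receptor gene *ced-1*, the adaptor gene *ced-6*, the transporter gene *ced-7* and *nrf-5*, limma called 0 in either strain, with median ratios of −0.06 in *ok165* and 0.16 in *uz1* larvae. *ced-6* had 0.44, 0.66 and 0.54 in *uz1* larvae (0.54 ± 0.11, limma adjusted p = 0.0956) and −0.20, −0.04 and −0.02 in *ok165* larvae. *ced-1* had −0.16, 1.03 and 1.08 in *uz1* larvae (0.65 ± 0.70, limma adjusted p = 0.264). The 2 genes for 5-hydroxyisourate hydrolase, the enzyme with the transthyretin fold, had ratios below 0 on all *uz1* arrays. *R09H10.3* had −0.46, −1.25 and −0.33 (−0.68 ± 0.50, limma adjusted p = 0.214) and *ZK697.8* had −0.42, −1.11 and −0.41 (−0.64 ± 0.40, limma adjusted p = 0.176), and in *ok165* larvae both had a mean of −0.10.

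The genes whose ratios followed those of the 4 called *ttr* genes most closely over the 6 arrays were found by Pearson's r among 14580 genes, given as a description. *ttr-6* was followed by *C17B7.9* (r = 0.995) and *tag-196* (r = 0.988), and *ttr-23* by *K03H9.1* (r = 0.995) and *far-4* (r = 0.994), whose protein binds fatty acids and retinol. *ttr-26* was followed by *T23E7.2* (r = 0.997) and *ZK669.2* (r = 0.994), and *ttr-43* by *dbd-20* (r = 0.999) and the forkhead factor gene *fkh-7* (r = 0.993). Within the family *ttr-26* was most like *ttr-29* (r = 0.982) and *ttr-43* most like *ttr-17* (r = 0.987), while *ttr-6* and *ttr-23* were both most like *ttr-25* (r = 0.935 and 0.905). Each r rests on 6 points, and the genes share the RNA and the hybridization of each array.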

How the data were processed

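Log2 ratios of mutant over wild type were obtained from 6 two-color *C. elegans* 22K arrays (Agilent), 3 for each mutant strain, with wild type in Cy3 and mutant in Cy5. The authors read spot intensity values from both channels with Agilent Feature Extraction (version 8.5.1.1 in the submitters' processing notes, and per the file headers 8.5.1.1 for array 1 of each strain and 9.1.3.1 for the others). Deposited intensity columns include the mean spot brightness, the local background and a processed signal with background subtracted and dyes normalized. The authors' deposited log10 ratios came from these processed signals, after lowess within arrays. The deposited table of the series holds these ratios per probe as log2 values, each array at a median of 0, and was used as an alternative. Wild type was well above background at 68.5% to 72.9% of non-control spots and mutant at 72.8% to 85.4%, and 3 to 151 spots per array were flagged as outliers. Precision is limited by the number of arrays.

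Log10 ratios were converted to log2, control and flagged spots were left out, and probes needed Cy3 or Cy5 signal well above background on 3 or more of 6 arrays. The brightest kept probe stood for a gene. Sequence names of 18121 of 18873 genes matched RefSeq's annotation, which gave symbols and gene order only. limma (version 3.58.1, under R version 4.3.3) estimated a mean per strain from all arrays together, tested against 0 and between strains. The fit had 4 residual degrees of freedom without blocking and fewer with it. The p-values were adjusted over all genes by Benjamini-Hochberg. Rank Products was run with 100 permutations at a probability of false prediction under 0.1. Both were tested on simulated data. The statement that the arrays are independent repeats is the methods' own. The p-values without blocking measure the spread between these arrays. Those marked as blocked measure only what is left of it once the variation between array numbers is taken out.

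Array numbers come from the sample titles. Deviations from the strain means correlated at r = 0.513, 0.686 and 0.291 across genes between arrays of the same number, so the numbers were taken to pair the arrays. Arrays numbered 2 shared a scan day, as did those numbered 3. Array 1 of both strains shared a slide, whereas arrays 2 and 3 of *ok165* were on another slide and those of *uz1* on yet another. Slide and scan day were tried as random blocks. Other alternatives were the filter, flagged spots, ratios of exactly 0, the mean over probes, normexp background correction with loess, leaving out each array and, chosen after seeing the data, leaving out members with wild type never well above background. The genes described in full were those called in a strain or between strains, the 5 with the largest absolute mean in each strain among those measured in both channels, *ttr-52*, *ttr-11* and *ttr-33* for their functions and *ttr-37* for its place in a table of the study; others named were chosen after their values were seen. Members and gene lists were chosen with earlier results of these data known. Besides the lists in the results, markers of pharynx, coelomocytes and sperm and of the L4 stage were measured. Their median ratios were 0.80, −0.01, −0.16 and 0.28 in *ok165* and −0.01, −0.22, 0.25 and 0.30 in *uz1* larvae. In the same order of strains, markers of neurons had 0.15 and −0.02, and those of the adult cuticle 0.35 and −0.39. The −0.39 is the mean of *rol-1*, which was saturated on both number 1 arrays, so it is not a sound measure. The lists of intestine, hypodermis, sperm and adult cuticle each held 1 marker saturated in wild type on some array, which limits their medians.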

Additional observations from a re-analysis of the deposited data

Results flagged for a closer look

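*ttr-20* (F36A4.8) had ratios below 0 on every *ok165* array, at −0.25, −0.24 and −0.04, and above 0 on every *uz1* array, at 0.25, 0.05 and 0.46, which drew attention to it as opposite in the 2 strains. The difference between the strains was 0.43, and limma did not call it (adjusted p = 0.799, or 0.256 when blocked by array number). Of the wild-type levels of the 48 *ttr* genes on the 6 arrays, that of *ttr-16* (Y5F2A.1) was the one with a sample far from the others. Its highest level, 5.22 on array 1 of *ok165*, lay apart from the rest by 0.67 of the whole range, which began at 4.56. Chance gives such a sample in about 1 of 20 genes.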

How the results depend on the processing

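The number of *ttr* genes called in *uz1* larvae was 4 and became 24 when blocked by array number (the pairing block) and 9 by Rank Products, and it ranged from 0 to 7 when single arrays were left out. In *ok165* larvae it was 0 and became 1 by Rank Products, and the number different between the strains was 0 and became 4 with scan day as a random block (*ttr-6*, *ttr-17*, *ttr-23* and *ttr-43*, with 554 genes called in all in place of 24). Both stayed at 0 without any single array. The median difference between the strains moved from 0.37 to 0.22 with normexp background correction and loess, and ranged from 0.21 to 0.48 without single arrays, while the median ratio ranged from 0.03 to 0.16 in *ok165* and from 0.23 to 0.48 in *uz1* larvae. The cause of these changes was not tested. For *ttr-11* and *ttr-52*, whose wild-type signals were never well above background, the fitted values are no measure of a fold and their sign has no meaning. That of *ttr-11* in *uz1* larvae was 0.09, was −0.05 with scan day as a random block and lay between −0.16 and 0.29 without single arrays, and that of *ttr-52* in *ok165* larvae lay between −0.24 and 0.01. The mean ratio of *ttr-55* in *ok165* larvae lay between −1.30 and 0.12. Counting without the members whose wild-type signal was never well above background, chosen after seeing the data, left the counts of 4, 0 and 0 as they were. Leaving out the signal filter ended the calls of *ttr-6* and *ttr-26*, and normexp with loess those of *ttr-26* and *ttr-43*, which scan day as a random block ended as well for *ttr-43*. Each of the 4 calls ended without any single *uz1* array. With 3 arrays a strain, only differences well above the spread between arrays could be called, and signals near background limit *ttr-11*, *ttr-28* and *ttr-52*.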
